A study of Mus musculus with 12 samples.

Results

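The collagens are the family of triple-helical proteins that make up most of the extracellular matrix of connective tissue. Their genes were taken as every symbol of the deposited count table that reads Col, a number, a and a number, which gave 44 genes of 23366 in the table. Each gene was represented by its RefSeq transcript with the highest total count, a choice that mattered for the 6 collagens with more than 1 transcript. They fell into 11 fibrillar collagens, 6 basement membrane collagens (type IV), 6 type VI collagens and 21 others, the last made up of 9 fibril-associated, 3 short-chain network, 4 transmembrane, 2 multiplexin and 3 anchoring or remaining collagens. Of the 44 genes, 31 had enough counts to be tested and 13 did not.

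RNA was sequenced from mouse embryonic fibroblasts, connective tissue cells grown from embryos, at passages 3 to 5 on a C57BL/6 background, with 2 libraries in each of 4 groups. The groups were wild-type cells in rich medium (DMEM with 10% fetal bovine serum, 0 h), wild-type cells after 18 h in glucose-free DMEM with 10% dialyzed serum, and Carm1 knockout cells in the same 2 media. Carm1 encodes CARM1, an enzyme that methylates arginine residues of histone H3 and acts as a transcriptional coactivator. The glucose-free groups are called starved below. No group was sampled in rich medium at 18 h, so glucose, dialysis of the serum and time in culture cannot be told apart. The labels do not say how the knockout was made or whether replicates were separate cultures, and p-values then measure only the spread between these libraries, which may be technical.

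A collagen chain is made in the endoplasmic reticulum, where prolyl and lysyl residues are hydroxylated and 3 chains wind into a helix. Fibrillar procollagens are then secreted, trimmed by propeptide proteases, packed into fibrils and crosslinked by lysyl oxidases. Type IV chains instead form the sheet-like network of basement membranes, and type VI chains form beaded microfilaments around cells. Cultured fibroblasts are known for high output of types I, III, V and VI. Chains of a type are often made in fixed proportion, because the helix needs specific partners.

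Total counts ran from 8447014 to 28155431 per library, and 3 counts corresponded to 0.104 to 0.369 CPM (the count of a gene relative to the TMM-scaled size of its library). Carm1 stood at 207 and 204 CPM in wild-type rich, 176 and 164 in wild-type starved, 48.1 and 70.8 in knockout rich and 53.9 and 58.6 CPM in knockout starved libraries, so its transcript was lower in the libraries labelled knockout and was not lost (-1.79 ± 0.19 on the log2 scale in rich medium, edgeR adjusted p = 0.000376). Where in Carm1 the remaining reads fall is not shown by gene counts. Knockout rich replicate 1 held the lowest total and stood apart from its partner. The SD of the log2 ratio between replicates was 0.74 there, against 0.12 to 0.13 in the other groups, and 6 of 19 collagens with a mean of 5 CPM or more there differed over 2-fold between the knockout rich replicates. The median log2 ratio of replicate 2 to replicate 1 over those 19 was 0.59, against 0.13 in wild-type rich libraries, where 17 of 19 were higher in replicate 2 as well. Over the 7836 genes with a mean of 10 CPM or more in every group this median was 0.05 in knockout rich and -0.003 in wild-type rich libraries. The share of all genes that differed over 2-fold is not given here. The counts of collagens called, by class and in all, and of the maturation genes are therefore also given without knockout rich replicate 1.

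The libraries of the genotypes also differed in fibroblast markers. Thy1, Dcn (decorin) and Lum (lumican), surface and matrix markers of fibroblasts, were near or at 0 in the wild type. Thy1 stood at 0.0465 and 0.214 CPM in wild-type rich, 0.159 and 0.0693 in wild-type starved, 135 and 124 in knockout rich and 180.4 and 168 CPM in knockout starved libraries. Dcn stood at 0.372 and 0.535 CPM in wild-type rich, 0.717 and 0.762 in wild-type starved, 1954 and 1372 in knockout rich and 1252 and 1172 CPM in knockout starved libraries, and Lum had 0 counts in all 4 wild-type libraries. Fn1 (fibronectin) and Vim (vimentin) were high everywhere, at 2594 CPM or more and 1429.8 CPM or more. Fn1 was still higher in the knockout, at 9078 CPM or more against 3419 CPM or less in wild-type libraries. Xist, the RNA of the inactive X chromosome, had 18657 to 23751 counts in wild-type libraries and 0 to 6 in knockout libraries. Loss of Carm1 and a different starting isolate of cells therefore cannot be told apart in any comparison of the genotypes below.

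Start-site sequences from RefSeq (build GRCm38.p6, 250 bases before to 50 after each start) matched 35 of the 44 collagens, with 38 windows, and 9 collagens had no window. The stretches below belong to genes on which the results turn: the chromosome neighbours of type IV, the type VI genes, Col8a1 and Col1a2. Each is printed 5′ to 3′ on the strand of its gene. Capitals mark a CCAAT box (CCAAT), a GC box (GGGCGG) or a TATA box (TATAAA) on either strand, so that their reverse complements are in capitals too. Col4a1 and Col4a2 start head to head, and their RefSeq transcripts overlap by the 22 bases shown first, on the Col4a2 strand (+, chr8:11312805-11312826). The others are the 120 bases before the start of Col4a6 (-, chrX:141474077-141474196), Col4a5 (+, chrX:141475299-141475418), Col6a1 (-, chr10:76726045-76726164), Col6a3 (-, chr1:90843972-90844091), Col8a1 (-, chr16:57754738-57754857) and Col1a2 (+, chr6:4505498-4505617).
Col4a2 and Col4a1: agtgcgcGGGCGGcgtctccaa
Col4a6: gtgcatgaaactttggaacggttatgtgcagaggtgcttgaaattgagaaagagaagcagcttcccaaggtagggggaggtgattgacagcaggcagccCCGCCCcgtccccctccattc
Col4a5: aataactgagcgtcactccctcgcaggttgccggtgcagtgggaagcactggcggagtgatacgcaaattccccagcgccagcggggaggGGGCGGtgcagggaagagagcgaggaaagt
Col6a1: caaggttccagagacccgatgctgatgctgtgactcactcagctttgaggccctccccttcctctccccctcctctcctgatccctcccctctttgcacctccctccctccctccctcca
Col6a3: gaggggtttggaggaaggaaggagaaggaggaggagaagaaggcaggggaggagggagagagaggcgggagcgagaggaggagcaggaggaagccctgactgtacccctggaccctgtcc
Col8a1: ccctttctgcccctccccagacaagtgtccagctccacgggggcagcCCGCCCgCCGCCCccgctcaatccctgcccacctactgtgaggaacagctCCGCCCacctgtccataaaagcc
Col1a2: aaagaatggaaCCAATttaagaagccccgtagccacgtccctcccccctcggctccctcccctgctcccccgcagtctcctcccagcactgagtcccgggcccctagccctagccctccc

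Over the whole windows, a GC box was found in 60.5% of the 38 collagen windows and in 35.7% of all 32851 windows. A CCAAT box was found in 34.2% and 37.4%, and a TATA box in 13.2% and 13.6%. Matches were counted on both strands and overlaps between motifs were kept. Motifs tied to stress of the endoplasmic reticulum or of amino acid supply were searched as well. The ER stress response element (CCAAT and CCACG with 9 bases between them, which contains the CCAAT box) was in 0 collagen windows and 0.119% of all. TGACGTGG, the unfolded protein response element, was in 0 and 0.676%, and TGATGNAA, an amino acid response element, in 0 and 3.97%. These are descriptions of letters in the windows only.

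Summed over the family, collagen levels were highest in wild-type rich cells. The 44 genes together made up 10348 and 10773 CPM in wild-type rich, 5668 and 5897 CPM in wild-type starved, 5639 and 9126 CPM in knockout rich and 5346 and 5371 CPM in knockout starved libraries. The fibrillar genes carried most of this total, at 7463 and 7746 CPM in wild-type rich, 3953 and 4222 CPM in wild-type starved, 3487 and 6029 CPM in knockout rich and 3481 and 3486 CPM in knockout starved libraries. Basement membrane genes gave 855 and 937 CPM in wild-type rich, 684 and 694 CPM in wild-type starved, 68.7 and 115 CPM in knockout rich and 73.6 and 72.8 CPM in knockout starved libraries, so that the mean of the knockout was 10.2% of that of the wild type in rich medium and 10.6% after starvation. Type VI ran the other way, at 662 and 718 CPM in wild-type rich, 179.9 and 189 CPM in wild-type starved, 1649 and 2292 CPM in knockout rich and 1204 and 1181 CPM in knockout starved libraries. The remaining collagens summed to 1368 and 1372 CPM in wild-type rich, 852 and 792 CPM in wild-type starved, 434 and 691 CPM in knockout rich and 587 and 632 CPM in knockout starved libraries. In the wild type all 4 sums were lower after starvation with no overlap of libraries, whereas in the knockout the basement membrane and other sums overlapped between media. In the knockout the fibrillar and type VI sums did not overlap, although the lower fibrillar value in rich medium was close to the starved pair. These sums weight the most abundant genes, Col1a1, Col1a2 and Col5a2 among the fibrillar ones, and are sums of counts that are not corrected for transcript length. In such bulk samples fewer cells of a type and less RNA per cell cannot be told apart.

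**Figure D1:**
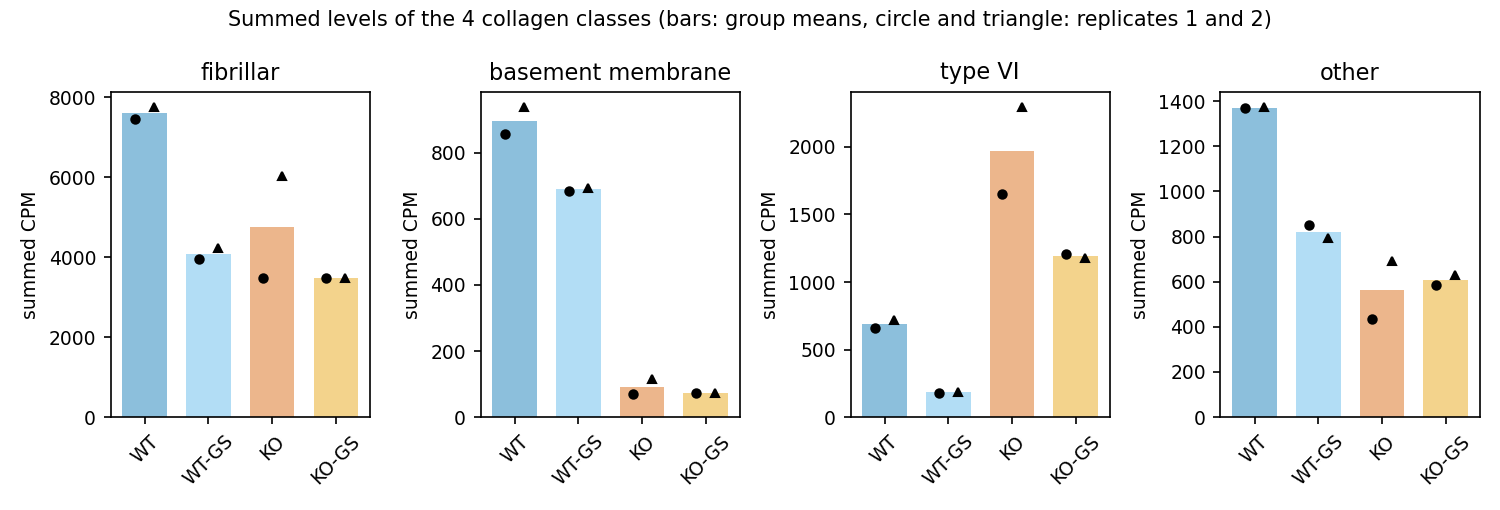
Summed CPM of the fibrillar, basement membrane, type VI and other collagens in the 4 groups, wild type (WT) and Carm1 knockout (KO) in rich medium or after starvation (GS). Bars are means of 2 libraries and symbols the libraries themselves. Basement membrane levels are 68.7 to 114.6 CPM in knockout libraries and 683.7 to 936.9 in wild-type libraries, while type VI levels are 1181 to 2292 CPM and 179.9 to 718 CPM.

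Knockout and wild type differed in 25 of the 31 tested collagens in rich medium and 26 after starvation. In rich medium 11 of the 31 tested collagens were higher and 14 lower, where 23.4% of all 13882 genes tested were higher and 20.7% lower. After starvation 14 were higher and 12 lower, against backgrounds of 27.8% and 26.8%. By class, rich medium gave 1 higher and 6 lower of 10 fibrillar, 1 and 3 of 4 basement membrane, 3 and 0 of 4 type VI, and 6 and 5 of 13 other collagens. Starved cells gave 2 and 5, 1 and 3, 4 and 0, and 7 and 4. The median log2 fold change of the 31 genes was -1.09 in rich medium and 0.26 after starvation, beside 0.00 and -0.02 over all genes tested, and setting the 4 genes with an empty group to their bounds left both medians the same. In both media 10 genes were higher, 90.9% of the higher calls in rich medium and 71.4% of those after starvation. Another 12 were lower in both, 85.7% and 100% of the lower calls. The same overlap over all genes tested is not given here, so these shares do not set collagens apart from other genes. Col8a1 was the only gene called in opposite directions in the 2 media.

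Of these calls, 17 of 25 in rich medium and 20 of 26 after starvation held in every setting that tested the gene. Without knockout rich replicate 1, which leaves a lone knockout rich library assumed to vary like the other groups, 15 were higher and 15 lower of 32 tested in rich medium, and 14 and 14 after starvation. The backgrounds then were 65.8% and 80.2% of all genes called in either direction. By class this gave 2 higher and 7 lower fibrillar, 1 and 3 basement membrane, 4 and 0 type VI, and 8 and 5 other collagens in rich medium, and 2 and 7, 1 and 3, 4 and 0, and 7 and 4 after starvation. The median was then -0.50 in rich medium and turned to -0.15 after starvation, with 1 more gene tested.

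All 4 tested type IV chains differed between the genotypes in both media. Col4a1 and Col4a2, the chains of the common network of nearly all basement membranes, were high in the wild type and low in the knockout. Col4a1 stood at 428 and 469.6 CPM in wild-type rich, 377 and 389 in wild-type starved, 4.06 and 11.3 in knockout rich and 10.6 and 10.2 CPM in knockout starved libraries. Col4a2 stood at 301 and 334 CPM in wild-type rich, 241 and 242 in wild-type starved, 6.65 and 8.44 in knockout rich and 8.86 and 7.62 CPM in knockout starved libraries. The wild-type and knockout values did not overlap for either gene, and every knockout library was far below every wild-type library. In rich medium the log2 fold change was -5.79 ± 0.42 for Col4a1 (edgeR adjusted p = 7.09e-05) and -5.37 ± 0.18 for Col4a2 (edgeR adjusted p = 6.46e-06). After starvation it was -5.20 ± 0.40 and -4.87 ± 0.18. Without knockout rich replicate 2 the Col4a1 change in rich medium was -6.79. Their transcripts run in opposite directions from the overlapping starts shown above, and without strand reads in the 22 shared bases cannot be assigned to either gene.

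Col4a6 and Col4a5, the type IV chains of smooth muscle and some epithelial basement membranes, moved in opposite directions. Col4a6 had 2 counts in each wild-type library and 93 to 583 in knockout libraries. Its levels were 0.0929 and 0.0713 CPM in wild-type rich, 0.0797 and 0.0693 in wild-type starved, 11.4 and 27.0 in knockout rich and 15.3 and 14.03 CPM in knockout starved libraries. It was higher in the knockout by 7.83 ± 0.60 on the log2 scale in rich medium and 7.52 ± 0.60 after starvation (edgeR adjusted p = 9.29e-05 and 7.1e-05). Col4a5, its neighbour on the X chromosome, stood at 126 and 133 CPM in wild-type rich, 64.8 and 62.1 in wild-type starved, 46.3 and 67.7 in knockout rich and 38.5 and 40.8 CPM in knockout starved libraries. It was lower in the knockout (-1.18 ± 0.19 and -0.68 ± 0.19 on the log2 scale), and the starved call ended when any of the 4 starved libraries was left out. Without knockout rich replicate 2 the rich-medium value of Col4a6 was 7.05. The starts of these neighbours lie 1343 bases apart and point away from each other. Col4a3 and Col4a4, partners of Col4a5 in the kidney filter, had at most 12 counts in a library and were not tested.

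**Figure D2:**
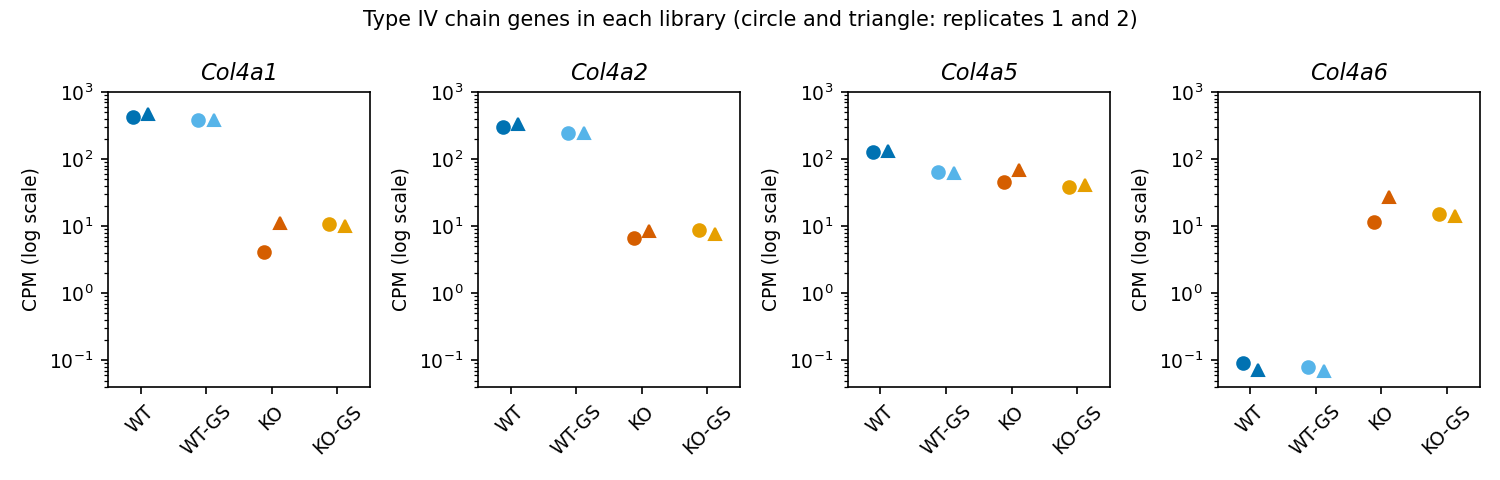
CPM of the 4 tested type IV genes in each library on a log axis, with wild type (WT) and Carm1 knockout (KO) in rich medium or starved (GS) along the horizontal axis. Col4a1 and Col4a2 are at 241.4 CPM or more in the wild type and 11.3 or less in the knockout, Col4a6 is at 11.4 CPM or more in the knockout and 0.0929 or less in the wild type, and Col4a5 spans a narrower range.

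Of the 4 tested type VI genes 3 were higher in the knockout in rich medium, 4 without knockout rich replicate 1, and 4 after starvation. Col6a3, the long chain that completes the type VI heterotrimer, stood at 40.3 and 39.6 CPM in wild-type rich, 20.5 and 16.8 in wild-type starved, 859.9 and 1100.5 in knockout rich and 584 and 570.2 CPM in knockout starved libraries. No wild-type library came near a knockout library. The log2 fold change was 4.62 ± 0.19 in rich medium (edgeR adjusted p = 7.91e-06) and 4.95 ± 0.19 after starvation (edgeR adjusted p = 4.76e-06). Col6a2 stood at 171 and 190.0 CPM in wild-type rich, 53.4 and 56.6 in wild-type starved, 293 and 486 in knockout rich and 261 and 264 CPM in knockout starved libraries, a difference of 1.11 ± 0.23 and 2.26 ± 0.23. Without wild-type replicate 1 the rich-medium call for Col6a2 was lost. Col6a1, the other short chain, stood at 451 and 488 CPM in wild-type rich, 106 and 116 in wild-type starved, 494 and 704 in knockout rich and 358 and 345 CPM in knockout starved libraries. It did not pass the test in rich medium (0.35 ± 0.18, edgeR adjusted p = 0.148), passed there without knockout rich replicate 1 (0.54, edgeR adjusted p = 9.94e-09), and was higher after starvation (1.67 ± 0.18, edgeR adjusted p = 0.000302). Col6a5, a chain related to Col6a3, had 0 counts in all wild-type libraries and 0.556 to 1.23 CPM in knockout libraries, at least 12.2-fold higher in rich medium and at least 15.7-fold higher after starvation. Such bounds set the empty group at 3 counts in all and cover counting error only. Of the 18233 values from 1 to 10 counts in the deposited data, 73.4% were even, so it is uncertain that small values count single independent reads, and the bounds carry that limit. Col6a4 and Col6a6 had at most 6 counts in a library.

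Among the fibrillar genes the difference between genotypes was mixed in sign. Col3a1, the chain of type III collagen of skin and vessel walls, was higher in the knockout and Col1a1 of type I was lower. Col3a1 stood at 216 and 240.2 CPM in wild-type rich, 96.2 and 101 in wild-type starved, 529.6 and 853 in knockout rich and 258 and 269 CPM in knockout starved libraries, with changes of 1.60 ± 0.22 in rich medium and 1.42 ± 0.22 after starvation. Col1a1 stood at 2775 and 2807 CPM in wild-type rich, 1400.2 and 1506 in wild-type starved, 804 and 1206 in knockout rich and 657 and 636 CPM in knockout starved libraries, with changes of -1.47 ± 0.20 (edgeR adjusted p = 0.00112) and -1.17 ± 0.20. Within each medium the wild-type and knockout values of both genes did not overlap. Col1a2, which pairs with Col1a1 in the type I helix, stood at 2355 and 2377 CPM in wild-type rich, 809.5 and 862 in wild-type starved, 1443 and 2781 in knockout rich and 1607 and 1612 CPM in knockout starved libraries. In rich medium Col1a2 overlapped between genotypes (-0.16 ± 0.27, edgeR adjusted p = 0.653), and it was 0.95 ± 0.28 higher in the starved knockout (edgeR adjusted p = 0.0232). Without knockout rich replicate 1 the rich-medium value turned to 0.19 (edgeR adjusted p = 0.0354). Leaving out any of the 4 starved libraries ended the starved call, with the value between 0.82 and 0.99 over the settings tried.

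Of the type V and type XI chains, which seed fibrils and limit their width, Col5a2, Col5a3 and Col11a1 were lower in the knockout in both media. Col5a3 stood at 69.5 and 77.8 CPM in wild-type rich, 78.2 and 83.6 in wild-type starved, 1.97 and 6.17 in knockout rich and 10.9 and 12.8 CPM in knockout starved libraries, with log2 changes of -4.06 ± 0.41 (edgeR adjusted p = 0.0003) and -2.77 ± 0.37. Col11a1 stood at 26.7 and 29.6 CPM in wild-type rich, 11.4 and 9.66 in wild-type starved, 5.54 and 5.75 in knockout rich and 3.25 and 2.50 CPM in knockout starved libraries, with changes of -2.32 ± 0.21 and -1.87 ± 0.21. All wild-type values lay above all knockout values for both genes. Col5a2 stood at 1114 and 1206 CPM in wild-type rich, 1097 and 1157 in wild-type starved, 461 and 625 in knockout rich and 625 and 621 CPM in knockout starved libraries, a smaller difference of -1.09 ± 0.17 and -0.86 ± 0.17. Col5a1 stood at 902 and 1003 CPM in wild-type rich, 457 and 499 in wild-type starved, 241 and 549.8 in knockout rich and 319 and 332 CPM in knockout starved libraries. Its change passed in rich medium (-1.27 ± 0.34) and not after starvation (-0.56 ± 0.33, edgeR adjusted p = 0.196), and the rich call ended without either wild-type rich library. Without knockout rich replicate 2 the rich-medium change was -5.23 for Col5a3 and -1.99 for Col5a1.

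The scarce fibrillar genes stayed under 3 CPM. Col27a1, a cartilage collagen, stood at 2.32 and 2.53 CPM in wild-type rich, 2.23 and 2.08 in wild-type starved, 0.492 and 1.11 in knockout rich and 0.602 and 0.559 CPM in knockout starved libraries and was lower in the knockout in both media (-1.44 ± 0.37 and -1.88 ± 0.36). The rich-medium call ended without either wild-type rich library, and the value was -2.30 without knockout rich replicate 2. Col11a2 stood at 1.95 and 1.82 CPM in wild-type rich, 0.239 and 0.208 in wild-type starved, 0 and 0.881 in knockout rich and 0.241 and 0.516 CPM in knockout starved libraries and passed in neither medium between genotypes. Col2a1, the main collagen of cartilage, did not exceed 1.39 CPM and also passed in neither. Col24a1 had 4 counts in knockout rich replicate 1 and 0 in the other 7 libraries.

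Of the fibril-associated collagens, which decorate fibrils without forming them, Col12a1 was the most abundant and was lower in the knockout. Col12a1 stood at 989 and 942 CPM in wild-type rich, 569 and 495 in wild-type starved, 237 and 205 in knockout rich and 138 and 148 CPM in knockout starved libraries, with changes of -2.13 ± 0.14 and -1.90 ± 0.14 (edgeR adjusted p = 4.99e-05 and 5.32e-05). Col16a1 stood at 87.3 and 106 CPM in wild-type rich, 33.7 and 39.8 in wild-type starved, 41.0 and 154 in knockout rich and 95.2 and 108 CPM in knockout starved libraries. Its knockout rich replicates lay on either side of the wild-type rich pair, and it passed only after starvation (1.47 ± 0.52, edgeR adjusted p = 0.0455), a call that ended when any of 6 libraries was left out. In rich medium its change was 0.03 ± 0.51, and without knockout rich replicate 2 it was -1.25. Col9a3, a chain of cartilage type IX, stood at 0.651 and 0.464 CPM in wild-type rich, 0.638 and 0.589 in wild-type starved, 1.23 and 2.32 in knockout rich and 1.36 and 1.94 CPM in knockout starved libraries and was higher in the knockout by 1.76 ± 0.44 and 1.42 ± 0.41. Its rich-medium value was 1.15 without knockout rich replicate 2, and that call ended there and without either wild-type rich library. The starved call ended without either wild-type starved library or knockout starved replicate 2. Col22a1, a collagen of tissue junctions, had 0 counts in wild-type libraries and 0.492 to 1.16 CPM in the knockout, at least 14.5-fold higher in rich medium and at least 20.5-fold higher after starvation.

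The short-chain type VIII genes, known from vessel walls and the corneal endothelium, behaved differently from each other. Col8a2 stood at 6.32 and 10.1 CPM in wild-type rich and 1.04 and 0.866 CPM in wild-type starved libraries and had 0 counts in every knockout library, at least 83.9-fold lower in rich medium and at least 15.2-fold lower after starvation. Col8a1 stood at 151 and 163 CPM in wild-type rich, 78.0 and 78.9 in wild-type starved, 70.4 and 75.2 in knockout rich and 133 and 146 CPM in knockout starved libraries. It was lower in the knockout in rich medium (-1.11 ± 0.12, edgeR adjusted p = 0.000449) and higher there after starvation (0.83 ± 0.12, edgeR adjusted p = 0.00115). Both Col8a1 calls held in all 17 settings tried. Col10a1, of hypertrophic cartilage, stood at 1.35 and 1.96 CPM in wild-type rich, 0.877 and 0.831 in wild-type starved, 0.492 and 0.0927 in knockout rich and 0.0802 and 0.0861 CPM in knockout starved libraries and was lower in the knockout (-2.92 ± 0.64 and -3.28 ± 0.70). Its rich-medium value was -4.14 without knockout rich replicate 1, and -1.76, no longer passing, without knockout rich replicate 2. That call also ended without wild-type rich replicate 2, and the starved one without knockout starved replicate 1.

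Col7a1 and Col17a1, collagens of epithelial attachment, were higher in the knockout. Col7a1, of the anchoring fibrils under epithelia, stood at 26.8 and 34.7 CPM in wild-type rich, 32.8 and 35.2 in wild-type starved, 44.9 and 173 in knockout rich and 170.0 and 177 CPM in knockout starved libraries. It was higher by 1.83 ± 0.53 in rich medium and 2.35 ± 0.54 after starvation. The rich-medium value was 2.44 without knockout rich replicate 1 and 0.53 without replicate 2, and the call ended when any of the 6 libraries of the other groups was left out. The starved call ended without either wild-type starved library. Col17a1, a transmembrane collagen of hemidesmosomes, stood at 0.139 and 0.285 CPM in wild-type rich, 0.0797 and 0.277 in wild-type starved, 1.72 and 4.59 in knockout rich and 5.45 and 5.03 CPM in knockout starved libraries and was higher by 3.91 ± 0.64 and 4.79 ± 0.62. These values were 2.92 without knockout rich replicate 2, 4.52 without wild-type rich replicate 2 and, for starved cells, 5.94 without wild-type starved replicate 2. Col28a1, a collagen with von Willebrand factor A domains like those of type VI, had 0 counts in all wild-type libraries and stood at 9.35 and 6.58 CPM in knockout rich and 4.25 and 4.82 CPM in knockout starved libraries. It was at least 121-fold higher in rich medium and at least 81.4-fold higher after starvation.

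The multiplexins, from which endostatin-like fragments are cut, were Col15a1 and Col18a1. Col18a1 stood at 105 and 113 CPM in wild-type rich, 134 and 139 in wild-type starved, 25.8 and 66.0 in knockout rich and 36.8 and 37.5 CPM in knockout starved libraries and was lower in the knockout (-1.23 ± 0.37 and -1.88 ± 0.37). Its rich-medium value was -2.09 without knockout rich replicate 2, and leaving out any of 6 other libraries ended that call. Col15a1 had at most 14 counts in a library, with 0.0929 and 0.143 CPM in wild-type rich, 0.239 and 0.0693 in wild-type starved, 0.738 and 0.649 in knockout rich and 0.0802 and 0.0861 CPM in knockout starved libraries. It was higher in the knockout in rich medium (2.45 ± 0.67, edgeR adjusted p = 0.023), a call that DESeq2 did not make and that ended when any of 5 libraries was left out (all but the wild-type starved pair and knockout rich replicate 1), and did not pass after starvation (-0.81 ± 0.84).

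Marker lists of several cell types moved with genotype, and their part in these differences was not tested. Their counts stand beside the shares of all genes tested that were higher (23.4% in rich medium and 27.8% after starvation) and lower (20.7% and 26.8%). Of 10 fibroblast markers tested 8 were higher in the knockout in rich medium and 0 lower, and their summed level was 6592 to 6763 CPM in wild-type rich, 5785 to 6203 in wild-type starved, 14875 to 16003 in knockout rich and 15340.0 to 15797 CPM in knockout starved libraries. Of 5 osteoblast markers tested (8 listed) 4 were higher and 1, Alpl, lower, with a sum of 156 to 159 CPM in wild-type rich, 118 to 129.5 in wild-type starved, 2556 to 3109.6 in knockout rich and 2246 to 2396 CPM in knockout starved libraries. Spp1 (osteopontin) made up nearly all of the knockout sums, and Bglap, Ibsp and Dmp1 stayed under 1 CPM in every library. After starvation 8 fibroblast markers were higher and 1 lower, and the osteoblast counts were again 4 and 1. Of 3 chondrocyte markers tested (9 listed) 1 was higher, Sox9, and 1 lower, with a sum of 11.6 to 13.1 CPM in wild-type rich, 4.78 to 5.75 in wild-type starved, 106 to 126 in knockout rich and 142 to 149 CPM in knockout starved libraries, while Matn1 and Hapln1 had 0 counts everywhere. Nearly all of the knockout sums of this list came from Sox9.

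Markers of other tissues gave mixed readings. Endothelial markers summed to 2.18 to 2.35 CPM in wild-type rich, 3.87 to 5.30 in wild-type starved, 132 to 158 in knockout rich and 242 to 245 CPM in knockout starved libraries, with Tie1 and Emcn at 0 in all libraries. Cdh5 (VE-cadherin) made up nearly all of the knockout sums and was at 0.0713 CPM or less in the wild type, where Kdr made up most of the sum. Of 3 endothelial markers tested (8 listed) 2 were higher and 1, Kdr, lower in either medium. Leukocyte markers summed to 2.46 to 2.60 CPM in wild-type rich, 5.47 to 5.54 in wild-type starved, 8.98 to 9.55 in knockout rich and 7.90 to 8.52 CPM in knockout starved libraries with Ptprc under 1 CPM everywhere (of 5 tested, 3 higher in rich medium, and 4 higher and 1 lower after starvation). Epithelial markers summed to 36.4 to 37.2 CPM in wild-type rich, 16.6 to 18.8 in wild-type starved, 18.7 to 30.0 in knockout rich and 50.5 to 55.2 CPM in knockout starved libraries with Cldn4 at 0 (of 4 tested, 1 higher and 1 lower, then 2 and 2). Skeletal muscle markers stayed at 6.80 CPM or less in sum, with Myog, Myf5 and Actc1 at 0 (of 2 tested, 1 higher in either medium). Schwann and neural markers summed to 699 to 795 CPM in wild-type rich, 253 to 258 in wild-type starved, 682 to 785 in knockout rich and 756 to 770.3 CPM in knockout starved libraries with Foxd3 at 0 (of 5 tested, 2 higher and 1 lower, then 3 and 0).

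**Figure D3:**
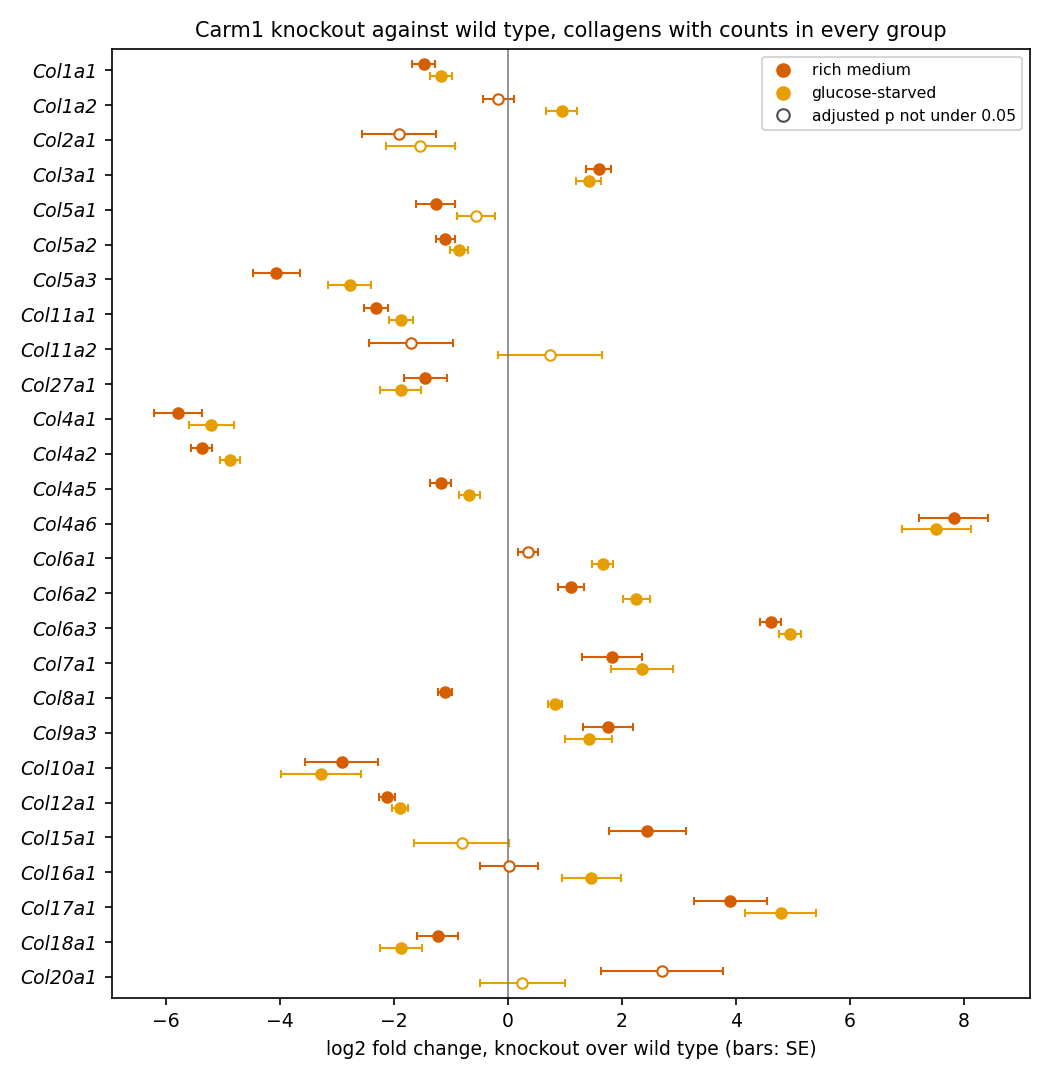
Log2 fold change, knockout over wild type, in rich medium and after starvation for the 27 tested collagens with counts in every group. Bars are standard errors and open symbols did not pass an adjusted p of 0.05. Col4a1 and Col4a2 lie from -5.79 to -4.87, Col4a6 at 7.52 and 7.83, Col6a3 at 4.62 and 4.95, and Col8a1 lies on opposite sides of 0 in the 2 media.

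In wild-type cells 12 collagens were lower after starvation. Of the 31 tested genes 12 were lower and 0 higher, where 18% of all genes tested were lower and 14.8% higher. The lower genes were 5 of 10 fibrillar (Col1a1, Col1a2, Col3a1, Col11a1, Col11a2), 1 of 4 basement membrane (Col4a5), 3 of 4 type VI (Col6a1, Col6a2, Col6a3) and 3 of 13 other collagens (Col8a1, Col8a2, Col12a1). The median log2 fold change was -0.56, beside 0.00 over all genes tested. With an unadjusted p under 0.05 there was 1 higher gene, Col20a1, a fibril-associated collagen with 0.232 and 0.107 CPM in wild-type rich, 1.08 and 1.49 in wild-type starved, 0 and 1.76 in knockout rich and 1.36 and 1.72 CPM in knockout starved libraries. DESeq2 called 1 collagen higher and 15 lower, and limma-voom 2 and 17. The shares of all genes that these 2 methods called are not given here, so their counts cannot be set against the 18% and 14.8%.

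The type VI chains Col6a1 and Col6a2 had the lowest fitted log2 changes among collagens at 10 CPM or more. Col6a1 fell from 469 ± 26.7 to 111 ± 6.95 CPM (mean ± SD, n = 2), a log2 change of -2.08 ± 0.19 (edgeR adjusted p = 0.000514), and Col6a2 from 181 ± 13.3 to 55.01 ± 2.22 CPM, a change of -1.71 ± 0.23. Col6a3 changed by -1.10 ± 0.17. The type I chains changed by -1.501 ± 0.28 (Col1a2, edgeR adjusted p = 0.00726) and -0.94 ± 0.20 (Col1a1, edgeR adjusted p = 0.0108) on the log2 scale. Col3a1 changed by -1.21 ± 0.22 and Col11a1 by -1.42 ± 0.19, and among the other collagens Col8a1 changed by -0.999 ± 0.12 and Col12a1 by -0.86 ± 0.14. In each of these genes both starved libraries lay below both rich libraries, which adds nothing to calls made on the same libraries. The scarce Col8a2 and Col11a2 changed by -3.11 ± 0.37 and -3.05 ± 0.77.

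Several abundant collagens did not pass. Each SE uses a spread per gene that the 4 groups share, so the gap between the knockout rich replicates enters it. A miss here therefore does not measure the spread among wild-type libraries alone. Col5a2 changed by -0.04 ± 0.16 (edgeR adjusted p = 0.886) and Col4a1 by -0.23 ± 0.33. Col4a2 (-0.39 ± 0.15), Col5a1 (-0.99 ± 0.34) and Col16a1 (-1.39 ± 0.52) missed the threshold with edgeR adjusted p of 0.0813, 0.0584 and 0.0775, although both starved libraries lay below both rich libraries in each. Col18a1 changed by 0.32 ± 0.36. Calls for Col6a1, Col6a2, Col6a3, Col8a1 and Col11a1 held in all settings tried. Without wild-type starved replicate 2 the other 7 calls ended. Those for Col1a1, Col1a2, Col3a1, Col4a5 and Col11a2 also ended without wild-type starved replicate 1 or wild-type rich replicate 2, and those for Col1a1 and Col11a2 without wild-type rich replicate 1. The count fell to 5 without wild-type starved replicate 2, to 7 without wild-type rich replicate 2 or wild-type starved replicate 1, and it was 18 without either knockout rich library (without replicate 1, 2 higher and 16 lower of 32 tested, with 66.8% of all genes called). By class that was 6 fibrillar, 3 basement membrane, 3 type VI and 4 other collagens lower, and 2 other collagens higher. Marker lists moved here too, against 18% of all genes lower and 14.8% higher, and their part was not tested. Of the markers tested, 3 of 10 fibroblast, 2 of 3 chondrocyte, 3 of 5 osteoblast, 1 of 4 epithelial and 1 of 5 Schwann and neural markers were lower, and 1 endothelial (Kdr), 1 leukocyte (Cd68) and 1 Schwann and neural marker (Tubb3) were higher.

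In knockout cells Col3a1, type VI chains and Col12a1 were lower after starvation and Col8a1 was higher. Of 31 tested genes 2 were higher and 6 lower, where 8.44% of all genes tested were higher and 9.77% lower. The lower genes were Col3a1 (-1.39 ± 0.22, edgeR adjusted p = 0.00756), Col6a1 (-0.77 ± 0.18), Col6a3 (-0.76 ± 0.16), Col11a1 (-0.97 ± 0.21), Col12a1 (-0.63 ± 0.14) and the scarce Col15a1 (-2.96 ± 0.72). The higher genes were Col8a1 (0.93 ± 0.12, edgeR adjusted p = 0.00424) and Col5a3 (1.42 ± 0.39, edgeR adjusted p = 0.0461). Both starved libraries lay beyond both rich libraries in all 8 genes, which adds nothing to calls made on the same libraries. Col1a1 changed by -0.64 ± 0.20 (edgeR adjusted p = 0.0638) and Col1a2 by -0.39 ± 0.28, and neither passed. The 4 type IV genes also did not pass, with changes from -0.53 for Col4a5 to 0.36 for Col4a1. The median over the 31 genes was -0.32, beside 0.00 over all genes tested. Without knockout rich replicate 2 the collagen median was 0.21, beside 0.09 over all genes. Without knockout rich replicate 1 it was -0.51 over 32 genes, beside 0.00.

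The knockout starvation calls depended on single libraries. Their number was 16 (2 higher and 14 lower of 32 tested, with 49.8% of all genes called) without knockout rich replicate 1, 17 without knockout rich replicate 2 and 0 without either knockout starved library, where edgeR gave 8 collagens with an unadjusted p under 0.05. It fell to 0 as well when only the knockout libraries entered the fit. All 8 calls ended without either knockout starved library, and those for Col5a3, Col6a1, Col11a1 and Col12a1 ended when any wild-type library was left out, as those for Col6a3 and Col15a1 did without either wild-type rich library. The Col15a1 call also ended without knockout rich replicate 2. The count was 2 without either wild-type rich library and 4 without either wild-type starved library. The Col5a3 value was 2.59 without knockout rich replicate 2. The fits without replicate 1 and without replicate 2 of that group did not call the same changes. Col5a1 changed by -0.74 without replicate 1 and by 0.44 without replicate 2, Col16a1 by -0.58 and 1.32, and Col18a1 by -0.81 and 0.53. Col6a1 stayed below 0 and Col8a1 above 0 in every setting. For the fit without replicate 2 the share of all genes called is not given here. Of the 12 collagens lower in starved wild-type cells, 5 were also called lower in the knockout (Col3a1, Col6a1, Col6a3, Col11a1 and Col12a1). That is 41.7% of the wild-type calls and 83.3% of the 6 knockout calls. The same overlap over all genes tested is not given here, so these shares do not set collagens apart. A missed call is not an absent change. In the knockout Col1a1, Col1a2, Col4a5, Col6a2 and Col11a2 changed by -0.64, -0.39, -0.53, -0.57 and -0.61, while Col8a1 was higher and Col8a2 had 0 counts. Leaving out knockout rich replicate 1, 5 fibrillar, 2 basement membrane, 3 type VI and 4 other collagens were lower, and 1 fibrillar and 1 other collagen higher. Of the markers tested, 3 of 10 fibroblast, 1 of 5 osteoblast and 1 of 5 Schwann and neural markers were lower and 1 of 4 epithelial markers (Krt19) was higher, where 9.77% of all genes were lower and 8.44% higher. Their part was not tested.

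**Figure D4:**
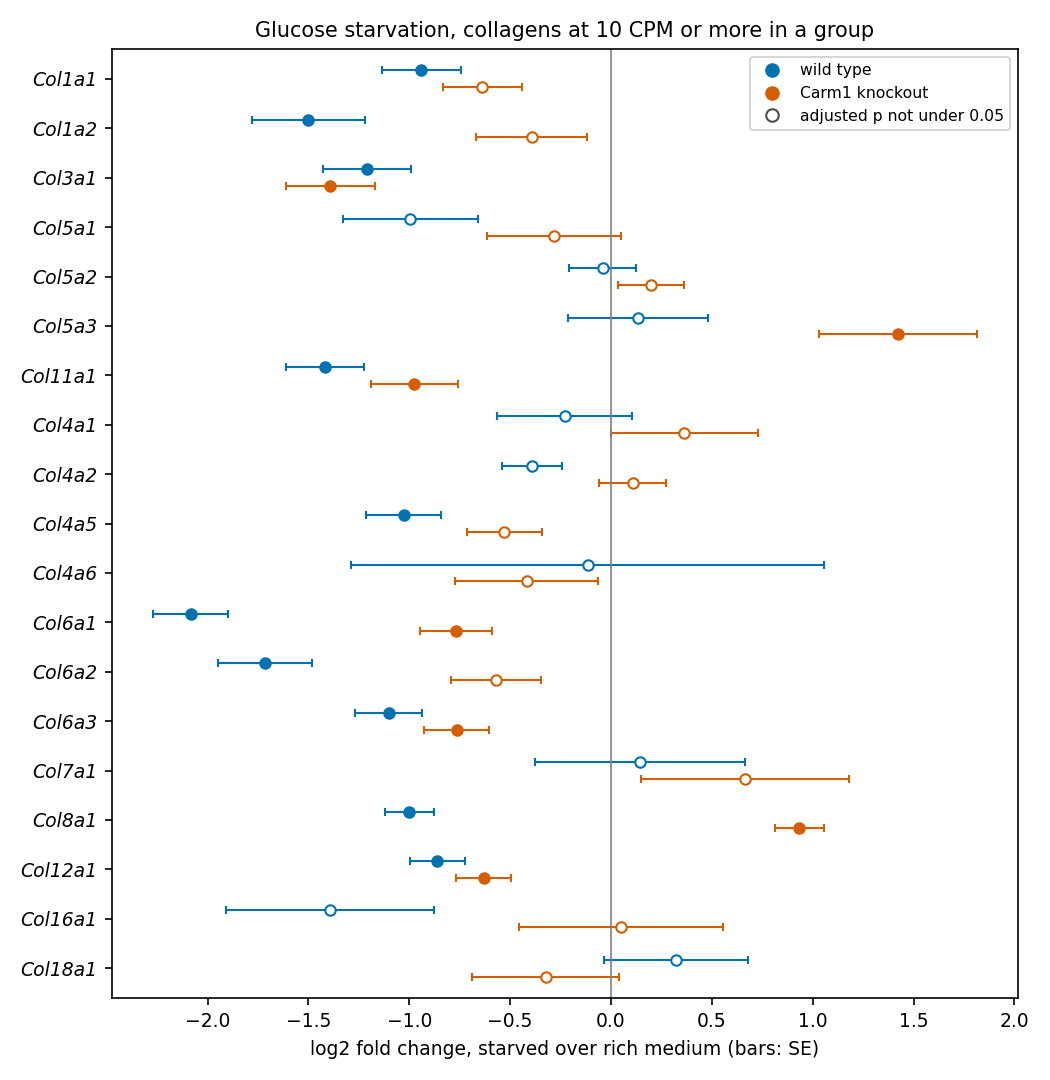
Log2 fold change, starved over rich medium, in wild-type and knockout cells for the 19 collagens with a mean of 10 CPM or more in a group. Bars are standard errors and open symbols did not pass an adjusted p of 0.05. Col8a1 lies below 0 in the wild type and at 0.93 in the knockout, and Col6a1 at -2.08 and -0.77. The wide bar of Col4a6 belongs to wild-type libraries with 2 counts each.

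The starvation responses of the genotypes differed in 2 collagens by a test of the difference itself. The background was 7.43% of all genes tested with a more positive response in the knockout and 5.91% with a more negative one. Col8a1 went from 157 ± 8.73 to 78.5 ± 0.624 CPM in the wild type and from 72.8 ± 3.41 to 139 ± 9.38 CPM in the knockout (mean ± SD, n = 2). The responses differed by 1.93 ± 0.17 on the log2 scale (edgeR adjusted p = 0.00141), a call that held in all 16 settings tried, with values from 1.87 to 1.99. Col6a1 fell in both genotypes and by less in the knockout, a difference of 1.31 ± 0.25 (edgeR adjusted p = 0.0182). That call ended when any library outside the knockout rich pair was left out, with values from 1.13 to 1.60 over the settings. Col6a2 differed by 1.15 ± 0.32 and Col1a2 by 1.11 ± 0.39, and both missed the threshold, though DESeq2 and limma-voom called both (edgeR adjusted p = 0.0573 and 0.109). The 29 collagens that missed it are not thereby shown to respond alike. Without knockout rich replicate 1, 10 differed upwards and 3 downwards of 32 tested, with 49.4% of all genes called.

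**Figure D5:**
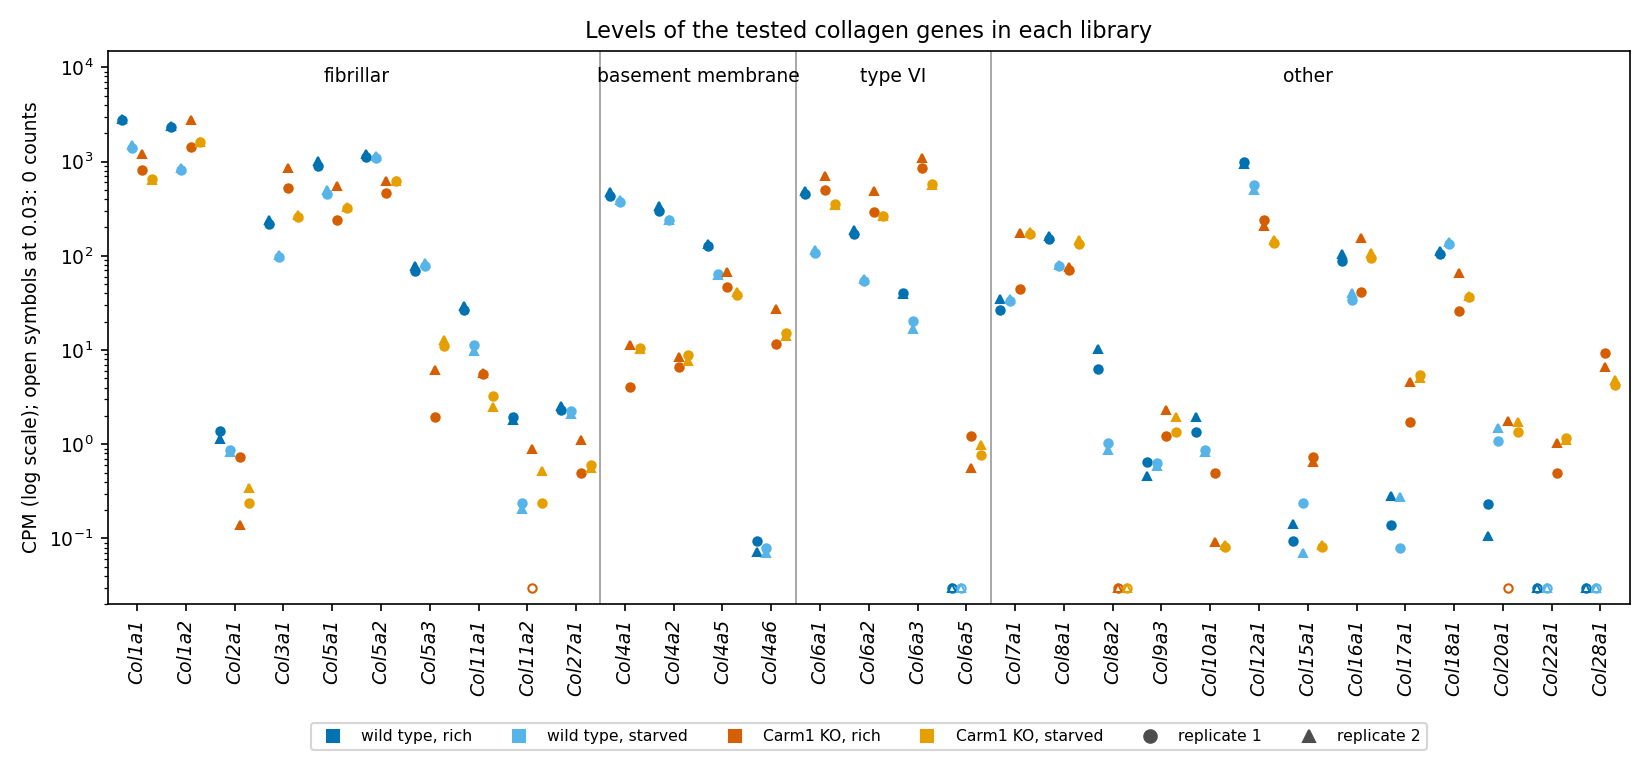
CPM of the 31 tested collagens in each library on a log axis, by class, with colours for the 4 groups and symbols for replicates 1 and 2. Open symbols mark libraries with 0 counts. The knockout rich replicates lie apart for Col7a1 (44.9 and 172.8 CPM) and Col16a1 (41.0 and 153.9 CPM), while Col8a1 shows opposite steps with starvation in the 2 genotypes.

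Chains that share a helix did not keep a constant ratio of counts. The ratio of Col1a1 to Col1a2 counts was 1.18 and 1.18 in wild-type rich, 1.73 and 1.75 in wild-type starved, 0.557 and 0.434 in knockout rich, 0.409 and 0.394 in knockout starved libraries. It was above 1 in every wild-type library and below 1 in every knockout library, and it was higher in starved than in rich wild-type cells. The ratio of Col6a1 to Col6a2 was 2.63 and 2.57 in wild-type rich, 1.98 and 2.05 in wild-type starved, 1.68 and 1.45 in knockout rich, 1.37 and 1.31 in knockout starved libraries, lower in all knockout than in all wild-type libraries. Col5a1 to Col5a2 gave 0.810 and 0.832 in wild-type rich, 0.416 and 0.431 in wild-type starved, 0.524 and 0.880 in knockout rich, 0.510 and 0.534 in knockout starved libraries. Col4a1 to Col4a2 gave 1.42 and 1.41 in wild-type rich, 1.56 and 1.61 in wild-type starved, 0.611 and 1.34 in knockout rich, 1.20 and 1.34 in knockout starved libraries, in a narrow range apart from knockout rich replicate 1, where Col4a1 had 33 counts. These ratios are of counts that are not corrected for transcript length, so they show unequal change between libraries and not the proportion of the chains.

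Genes of collagen maturation were taken from 4 lists. Their counts stand beside the shares of all genes tested, which were 14.8% higher and 18% lower for wild-type starvation, 8.44% and 9.77% for knockout starvation, 23.4% and 20.7% between genotypes in rich medium, and 27.8% and 26.8% after starvation. These shares hold for the fit with all libraries. Maturation counts without knockout rich replicate 1 belong beside the larger shares of all genes called in that fit, given above with the collagens. Of 11 tested genes for propeptide cleavage and crosslinking, 6 were lower with wild-type starvation and 0 higher, namely 4 lysyl oxidases, Adamts2 and Pcolce2, while the proteases Bmp1, Tll1 and Adamts14 did not pass. Loxl1 changed by -2.68 ± 0.39, Lox by -1.14 ± 0.12, Loxl2 by -0.97 ± 0.14 and Pcolce2, an enhancer of propeptide cleavage, by -1.14 ± 0.22. In the starved knockout 1 was higher, Loxl4 (1.01 ± 0.20), and 2 lower, Lox (-0.70 ± 0.12) and Loxl2 (-1.15 ± 0.14). Leaving out knockout rich replicate 1, the counts were 0 higher and 10 lower in the wild type and 3 and 5 in the knockout. The median of this list was -0.97 in the wild type and -0.22 in the knockout. The responses differed between genotypes for Loxl1 (2.34 ± 0.52) and Loxl4 (1.71 ± 0.29).

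Between genotypes the same list was split. Lox stood at 229 and 222 CPM in wild-type rich, 105 and 99.0 in wild-type starved, 1313 and 1156 in knockout rich and 771 and 752 CPM in knockout starved libraries, higher in the knockout by 2.45 ± 0.13 in rich medium and 2.90 ± 0.13 after starvation. Loxl2 stood at 329 and 321 CPM in wild-type rich, 170.1 and 162 in wild-type starved, 56.4 and 69.9 in knockout rich and 29.0 and 28.1 CPM in knockout starved libraries, lower in the knockout (-2.36 ± 0.14 and -2.54 ± 0.15). Pcolce2 had 858 to 2185 counts in wild-type libraries and at most 2 in knockout libraries, and Adamts2, a procollagen protease, stood at 33.1 and 34.2 CPM in wild-type rich, 10.6 and 10.8 in wild-type starved, 0 and 1.16 in knockout rich and 0.722 and 0.602 CPM in knockout starved libraries. In all, 2 members were higher and 6 lower in rich medium, and 4 and 4 after starvation. These were 4 and 6, and 5 and 6, without knockout rich replicate 1.

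Of the 14 tested genes for hydroxylation and glycosylation, 1 was higher and 3 lower in starved wild-type cells, shares near or below those of all genes, and 1 higher and 5 lower in the starved knockout. They were 3 and 8, and 1 and 9, without knockout rich replicate 1. P4hb, the shared subunit of prolyl hydroxylase, was higher in the wild type (0.64 ± 0.12), and P4ha2, a catalytic subunit, was lower (-0.86 ± 0.19). P4ha1, another catalytic subunit, was lower in the knockout (-0.65 ± 0.11), as were P4ha3 (-0.86 ± 0.17), Plod2 (-1.05 ± 0.21) and P4ha2 (-0.82 ± 0.19). The responses differed for P4ha1 (-0.77 ± 0.16), P4hb (-0.86 ± 0.17) and Leprel1 (1.08 ± 0.21). Between genotypes 3 were higher and 5 lower in rich medium and 5 and 7 after starvation (5 and 8, and 5 and 9, without that library). Crtap, a partner of prolyl 3-hydroxylase, was lower in both (-1.21 ± 0.18 and -1.18 ± 0.18) and P4ha3 was higher in both (1.57 ± 0.18 and 1.15 ± 0.17).

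Of 15 tested genes for folding and secretion, 3 were higher and 2 lower in starved wild-type cells and 0 higher and 2 lower in the starved knockout. With all libraries in the fit, the wild-type shares and the lower share of the knockout lie near those of all genes. The counts became 4 and 8, and 3 and 7, without knockout rich replicate 1. Creb3l1, a membrane-bound transcription factor needed for bone collagen, was lower in both (-1.36 ± 0.16 and -1.21 ± 0.16). Klhl12, which helps to form large transport vesicles, was higher in the wild type (0.81 ± 0.16), and Fkbp14, a prolyl isomerase, was lower in the knockout (-2.25 ± 0.26), a difference between genotypes of -1.77 ± 0.36. In the knockout against the wild type 5 were higher and 2 lower in rich medium and 5 and 3 after starvation (6 and 7, and 7 and 3, without that library). Sparc, a collagen-binding protein, was lower (-1.85 ± 0.16 and -1.72 ± 0.16), and Larp6, which binds type I collagen messages, was higher (1.68 ± 0.24 and 1.74 ± 0.22).

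Of 8 tested collagen receptors, Itga1 and Itga11 were the 2 lower in starved wild-type cells (-1.88 ± 0.41 and -1.54 ± 0.35) and 0 were higher. In the starved knockout Itga2 was the 1 higher (3.78 ± 0.53) and 0 were lower. These were 2 higher and 4 lower, and 3 and 1, without knockout rich replicate 1. Between genotypes 0 were higher and 2 lower in rich medium, Itga11 (-3.65 ± 0.47) and Itga1 (-1.79 ± 0.44), and 2 were higher and 2 lower after starvation (1 and 4, and 3 and 3, without that library). With all libraries in the fit, these shares of lower genes lie near those of all genes. Itgb1, the beta subunit shared by the integrin alpha chains of this list, was abundant in all groups, from 863 to 1349.7 CPM. The lists were drawn up with earlier results of these data known.

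Several calls in the maturation lists depended on a library. In wild-type starvation Lox, Loxl1, Loxl2 and Creb3l1 held in all settings tried, while those for P4hb, P4ha2, Klhl12, Pcolce2 and Itga1 ended when any of the 4 wild-type libraries was left out, and that for Itga11 without any of them but starved replicate 1. In knockout starvation the calls for Lox, Loxl2, Loxl4, Creb3l1, P4ha1, P4ha2, P4ha3, Plod2 and Itga2 ended without either knockout starved library, and that for Fkbp14 without knockout starved replicate 2. Loxl4 and P4ha2 were also lost when any wild-type library was left out, and P4ha3 without either wild-type rich library. The Itga2 value was 4.77 without knockout rich replicate 1 and 2.79 without replicate 2. Every difference of responses named for these lists ended when any library outside the knockout rich pair was left out, and that of Loxl1 was 3.15 without knockout rich replicate 2. Between genotypes Itga1 in rich medium was lost without either wild-type rich library. The other genotype calls given with a log2 change held without each library in turn. Pcolce2 in both media and Adamts2 after starvation were not examined in this way.

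The 13 collagens that were not tested had at most 12 counts in a library, the highest being Col4a3. They were Col4a3, Col4a4, Col6a4, Col6a6, Col9a1, Col9a2, Col13a1, Col14a1, Col19a1, Col23a1, Col24a1, Col25a1 and Col26a1. Col9a1, Col25a1 and Col26a1 had 0 counts in all 8 libraries, which allows up to 0.104 to 0.369 CPM per library from counting error alone. Col14a1, a fibril-associated collagen of mature connective tissue, had 0 counts in the knockout and 10 in the wild-type starved pair, at least 2.98-fold lower in the starved knockout by the bound above. Col4a4 had 12 counts in the wild-type starved pair and 0 in the wild-type rich pair, at least 3.67-fold higher after starvation, and 10 of the 12 lay in 1 library. The others are not compared.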

How the data were processed

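The authors deposited 1 table of raw read counts per RefSeq transcript for 8 RNA-seq libraries, 2 in each group. TopHat2 2.0.9 and bedtools are named per the submitters' processing notes, with build mm9. For strand and counting settings, the sources used here give nothing. Of several transcripts of a symbol, the one with most counts in all was kept. Genes passing filterByExpr (13882) were fitted with edgeR 4.0.16 (R 4.3.3), using TMM scaling and the quasi-likelihood test over all 8 libraries with 1 mean per group. Adjusted p-values are Benjamini-Hochberg over these genes, with a threshold of 0.05. The common biological coefficient of variation was 18.5%. Log2 fold changes carry ± SE, derived from the F statistic with a spread per gene shared by all groups, and CPM means carry ± SD. The fit was also run on simulated data with the same spread for all genes and groups. That does not cover the wider spread of the knockout rich pair, and its outcome is not given here. Total counts of 8447014 to 28155431 set the precision, and bounds cover counting error only. Values per library are given for collagens at 10 CPM or more or passing a test, and for each maturation list up to 4 called members with the smallest p. Collagens and lists were chosen with earlier results of these data known. Maturation lists covered hydroxylation and glycosylation, folding and secretion, cleavage and crosslinking, and receptors. Marker lists covered fibroblasts, chondrocytes, osteoblasts, endothelium, leukocytes, epithelium, skeletal muscle, and Schwann and neural cells. Alternatives were other scalings, filters and transcripts, DESeq2 1.42.0, limma-voom (limma 3.58.1), a replicate block, fewer groups, and each library left out. For Carm1 and the maturation genes these were added after seeing the data. The 4 chromatin immunoprecipitation libraries are not analysed here.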

Additional observations from a re-analysis of the deposited data

Results flagged for a closer look

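The starvation responses of the genotypes differed in 2 collagens by the interaction term of the edgeR quasi-likelihood fit. Col8a1, a short-chain network collagen, responded more positively in the knockout by 1.93 on the log2 scale, lower after starvation in both wild-type replicates and higher in both knockout replicates. Col6a1, a type VI chain, was lower after starvation in both genotypes, and its response differed by 1.31. The groups hold 2 libraries each, too few to look for single outlying samples.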

How the results depend on the processing

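The number of collagens called for wild-type starvation (12) was 19 with limma-voom, 19 with only the groups compared, and 5 to 18 with a library left out. For knockout starvation (8) it was 5 with limma-voom, 0 with only the groups compared (edgeR; 9 at an unadjusted p under 0.05, and 10 called by DESeq2 on all libraries), and 0 to 17 with a library left out. For the difference of responses (2) it was 4 with DESeq2, 5 with limma-voom, and 1 to 15 with a library left out. Genotype counts stayed within 1.5 times of the reported ones, at 18 to 30 in rich medium and 20 to 28 after starvation. With the replicate number as a block the 5 counts were 13, 7, 25, 26 and 3. No share of all genes stands beside the counts per setting, so they do not show whether collagens moved more than other genes. Same-numbered replicates did not deviate together over genes (r from -0.026 to 0.063), which cannot show whether they were prepared together. Leaving out a knockout rich library reversed 5 changes: in knockout starvation Col16a1 ran from -0.58 to 1.32, Col18a1 from -0.81 to 0.53 and Col5a1 from -0.74 to 0.44, and in the rich genotype comparison Col16a1 ran from -1.25 to 0.63 and Col1a2 from -0.72 to 0.19. The cause was not tested. Such fits leave a lone library that is assumed to vary like the other groups. Without scaling, the median over all genes of the starved genotype comparison was -0.138, against -0.02 as reported. Depth limits the collagens under 1 CPM.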
